A study of Mus musculus with 9 samples.

Results

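The genes described here are 8 genes of the naive state of mouse embryonic stem cells (ESCs): Klf2, Klf4, Klf5, Tbx3, Tfcp2l1, Zfp42, Dppa3 and Prdm14. They were taken by name, with earlier results of these data known, and make up 8 of the 24132 gene symbols for which RPKM (reads scaled to the length of the transcript and the depth of the library) were deposited. All 8 were among the 9787 genes that were tested, those with 2 or more libraries at an RPKM of 1 or higher.

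RIPiT-seq purifies a tagged protein in tandem, here through a FLAG and then an HA tag, and sequences the RNA that comes with it. All lines were V6.5 mouse ESCs of a 129/B6 F1 hybrid background, grown without feeder cells in medium with LIF and fixed with formaldehyde, and all kept their own Wdr5 gene. The empty vector line (EV) was infected with a lentivirus that carries no tagged WDR5, the WT line with FLAG-HA-tagged human WDR5, and the F266A line with FLAG-HA-tagged human WDR5 carrying a phenylalanine-to-alanine change and shorter at its N-terminus. The WT and F266A lines were clones picked for a level of the tagged protein near that of the endogenous one. For EV (mock) cells, a caption of the study describes a blot of individually isolated clones. It does not say outright whether the EV libraries came from a single clone. Each line was represented by 1 input library and 2 IP libraries, so that 9 libraries were compared. The p-values below therefore measure the spread between libraries of a line, which may be technical. In tests of IP against input this spread is that between the IPs of a line alone. A difference between lines cannot be told apart from a difference between clones.

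Naive ESCs resemble the epiblast of the blastocyst, and are kept in this state by LIF, which signals through the kinase JAK1 and the transcription factor STAT3. Klf4 and Tfcp2l1 are targets of STAT3, and Klf2, Klf4 and Klf5 encode zinc finger proteins that bind many of the same regulatory elements as Oct4, Sox2 and Nanog. Tbx3 encodes a T-box factor of the same network, Zfp42 encodes the zinc finger protein Rex1, Dppa3 encodes the maternal factor Stella, and Prdm14 encodes a PR domain protein that restrains FGF signalling and DNA methylation and is needed for primordial germ cells.

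The lines differed in more than the tagged protein. The summed RPKM of the Y-linked genes Ddx3y, Uty and Eif2s3y was 7.41 to 9.48 in the EV libraries and 0.182 to 0.324 in the WT libraries. The F266A input had a sum of 4.43, IP 1 of 0.0383 and IP 2 of 7.21, so that IP 1 stood apart from the other libraries of its line and was nearest to the WT libraries. Whether the library labelled F266A IP 1 held cells of the same clone, of another clone or of another line was not tested, which bears on each F266A value below that includes it. The summed RPKM of 16 primitive endoderm markers was 35.1 to 45.1 in the EV and WT libraries, 75.6 in the F266A input, 95.2 in its IP 2 and 37.0 in its IP 1. Of these 16 markers, 15 were highest among the inputs in the F266A input, for which the share of all genes was not counted. The share of all genes tested that were lowest there was 58.9%. Gata4 was at 1.90 in the F266A input, 0.157 in that of EV and 0.0688 in that of WT. Of the 16, 7 stayed below an RPKM of 1 in all 9 libraries. The summed RPKM of 7 trophectoderm markers was 5.999 in WT IP 1 and 4.69 in F266A IP 1 and 1.34 to 3.16 in the other libraries, with Cdx2 at 0 in every EV and WT library. Krt8 and Krt18 made up most of the 2 highest sums, and the other 5 markers stayed below an RPKM of 1 throughout. The summed RPKM of 7 fibroblast markers was 0.451 to 1.59. The core factors that mark ESCs were present throughout, with Pou5f1 between 36.3 and 81.1. Differences in level between F266A and EV are therefore given with and without this IP 1 for the naive genes, and as counts for the other lists.

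Klf5 had the highest level of the naive genes, with a mean RPKM of 32.5 ± 5.31 (SD over 9 libraries), and was above every other naive gene in all 9 libraries. Tfcp2l1 (15.6 ± 2.82), Zfp42 (14.5 ± 2.77) and Klf4 (13.3 ± 2.35) followed and did not differ beyond their spread, since Tfcp2l1 was above Zfp42 in only 4 libraries and Zfp42 above Klf4 in 6. Dppa3 (7.68 ± 3.84), Tbx3 (5.77 ± 1.89) and Klf2 (4.31 ± 2.09) also overlapped with their neighbours, Dppa3 being above Tbx3 in 5 libraries and Tbx3 above Klf2 in 6. Prdm14 was lowest, with a mean RPKM of 1.93 ± 0.554, and was below Klf2 in all 9 libraries.

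**Figure D1:**
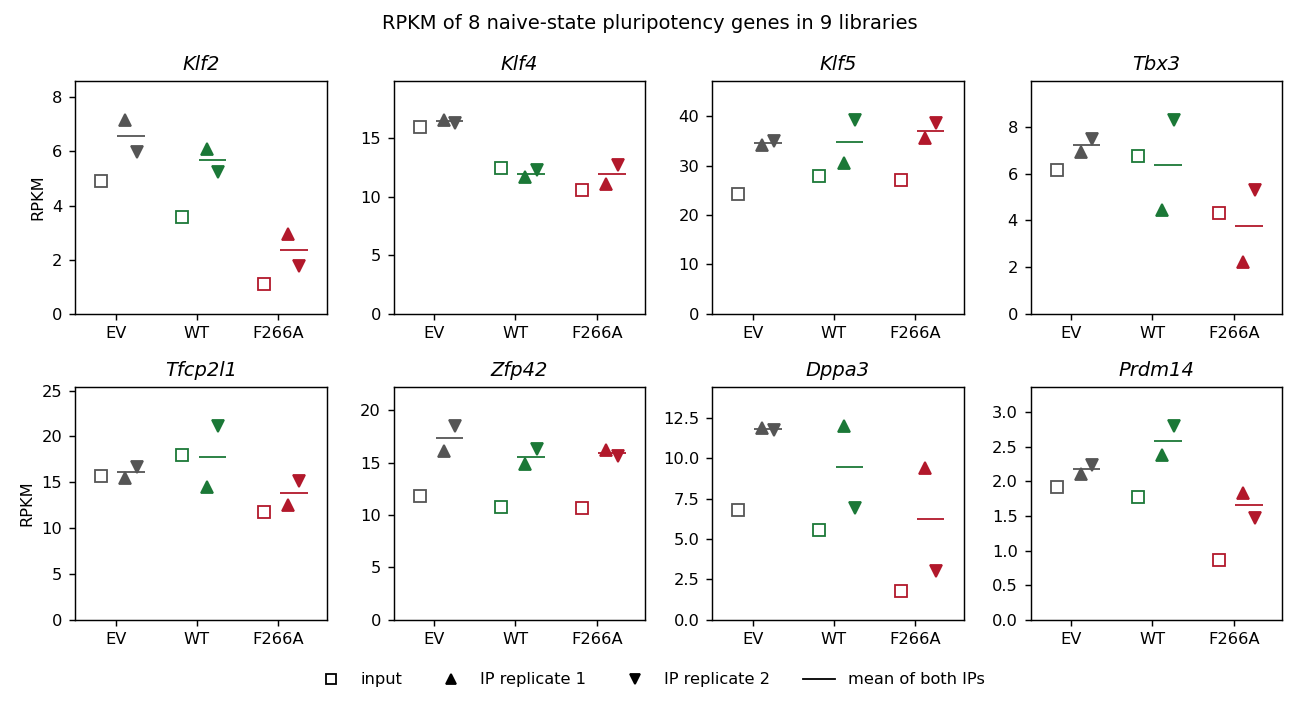
RPKM of each naive gene in the input (open square) and the IPs (triangles) of the EV, WT and F266A lines, with the mean of both IPs as a line. Klf2 lies between 1.08 and 2.96 in the F266A libraries and between 3.58 and 7.17 in the EV and WT libraries, Klf4 is highest in the EV line, and both F266A IPs of Dppa3 lie far apart.

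The first question was whether the naive genes were present at the same level in the 3 lines. Levels were compared over the input and both IPs of each line, with the fraction as a covariate, on the log2(RPKM + 1) scale, on which differences of genes with low RPKM are understated. Between F266A and EV, 4 of the 8 naive genes were lower in F266A (Klf2, Klf4, Dppa3 and Prdm14) and 0 were higher, where 11.3% of all genes tested were lower and 5.45% higher. Between WT and F266A, 2 were higher in WT (Klf2 and Prdm14), against 7.25% of all genes. Between WT and EV none of the 8 passed the threshold, and 0.174% of all genes did. Leaving out F266A IP 1, 4 naive genes were lower in F266A than in EV, where 17.1% of all genes were, and 3 were higher in WT than in F266A, where 12.6% were. Over each single library left out, 2 to 4 were called in F266A minus EV and 1 to 3 in WT minus F266A. Of all genes, 804 to 2531 and 293 to 1800 were then called in either direction. In each case fewer cells of one kind and less RNA per cell cannot be told apart.

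With all libraries, Klf2 differed most of the 8 between F266A and either other line, whereas without F266A IP 1 Dppa3 did. The EV libraries read 4.92 RPKM (input), 7.17 (IP 1) and 5.99 (IP 2), the WT libraries 3.58, 6.09 and 5.26 in the same order, and the F266A libraries 1.08, 2.96 and 1.75. All 3 F266A libraries were thus below all 6 others, as was the case for 6.79% of the genes tested. F266A IP 1 was among these 3, with a primitive endoderm sum within the range of the other lines and the lowest Y-linked sum. The part of either in the level of Klf2 was not tested.

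The level of Klf2 was lower in F266A than in EV by 1.30 on the log2 scale (SE 0.14, 2.46-fold, limma adjusted p = 0.000456), and higher in WT than in F266A by 1.05 (SE 0.14, 2.08-fold, limma adjusted p = 0.00202). With F266A IP 1 left out these differences were -1.47 (limma adjusted p = 8.18e-05) and 1.22 (limma adjusted p = 0.000280). WT and EV differed by -0.25 (95% interval -0.55 to 0.06, limma adjusted p = 0.661). Klf2 was the one naive gene that also passed with the IPs alone, without inputs, at -1.20 for F266A minus EV and 1.01 for WT minus F266A. Its lowest library, the F266A input, held an estimated 75 reads on the gene, a counting error of 11.5%.

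Klf4 was highest in the EV line. Input, IP 1 and IP 2 stood at 15.9, 16.6 and 16.3 RPKM in EV, at 12.4, 11.6 and 12.2 in WT and at 10.6, 11.1 and 12.7 in F266A. All 3 EV libraries were above all 6 others, which was the case for 0.94% of the genes tested, whereas WT and F266A overlapped. The level in F266A was lower than in EV by 0.48 (SE 0.09, 1.39-fold, limma adjusted p = 0.00501), and by 0.45 without F266A IP 1 (limma adjusted p = 0.00732). With the IPs alone the difference was -0.44 and did not pass (limma adjusted p = 0.0828). WT was lower than EV by a similar 0.40, which did not pass over all genes (95% interval -0.59 to -0.21, limma adjusted p = 0.166), and WT and F266A differed by 0.08 (95% interval -0.11 to 0.27), or 0.049 without F266A IP 1. Of the Klf4 transcript, 24.6% has a match elsewhere in mm9 of at least 100 bases at 95% identity or more, so its reads could be shared with other loci.

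Klf5, the third Klf gene of the network, did not follow Klf2 and Klf4. In the order of input, IP 1 and IP 2, EV held 24.2, 34.3 and 35.0 RPKM, WT 27.9, 30.5 and 39.3, and F266A 27.1, 35.6 and 38.7. The libraries of the lines overlapped. The difference was 0.12 for F266A minus EV (95% interval -0.12 to 0.35, limma adjusted p = 0.485) and -0.05 for WT minus F266A (95% interval -0.29 to 0.18, limma adjusted p = 0.815). These were 0.14 and -0.080 without F266A IP 1.

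Promoters are shown for Klf2 and Klf4, which were both lower in F266A than in EV, and for Zfp42, which did not pass in any comparison of levels. RefSeq promoters for GRCm38.p6 were held for 4 of the 8 genes, these and Tfcp2l1. Each line gives the 250 bases before the gene's start, 5′ to 3′ on the strand of the gene, and capitals mark the GC box GGGCGG, the core letters bound by many Sp and Klf proteins, on either strand. They lie at chr8:72318812-72319061 on the plus strand (Klf2), chr4:55532476-55532725 on the minus strand (Klf4) and chr8:43307010-43307259 on the minus strand (Zfp42).
Klf2: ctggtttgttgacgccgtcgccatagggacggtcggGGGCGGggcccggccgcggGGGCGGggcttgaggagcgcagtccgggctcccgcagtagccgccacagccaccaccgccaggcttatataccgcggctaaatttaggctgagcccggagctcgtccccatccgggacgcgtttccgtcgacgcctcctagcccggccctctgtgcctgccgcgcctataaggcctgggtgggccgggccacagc
Klf4: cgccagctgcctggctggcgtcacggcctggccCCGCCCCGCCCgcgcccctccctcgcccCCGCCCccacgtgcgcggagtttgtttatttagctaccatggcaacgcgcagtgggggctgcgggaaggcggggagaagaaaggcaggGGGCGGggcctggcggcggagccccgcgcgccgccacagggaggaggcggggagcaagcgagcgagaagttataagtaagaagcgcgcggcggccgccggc
Zfp42: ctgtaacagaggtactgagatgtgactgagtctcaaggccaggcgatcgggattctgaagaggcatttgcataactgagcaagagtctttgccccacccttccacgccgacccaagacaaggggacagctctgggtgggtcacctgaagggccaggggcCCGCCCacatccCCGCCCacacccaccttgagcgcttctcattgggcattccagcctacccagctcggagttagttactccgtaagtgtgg
Klf2 held 2 GC boxes, Klf4 4, of which the first 2 overlap by a base, Zfp42 2 and Tfcp2l1 0, and 32.7% of 32851 promoter windows of the same length held at least 1. The STAT site TTCNNNGAA was in 0 of these 4 windows and in 7.02% of all, which says only that these letters are not within 250 bases of the start. The GC content was 71.2% for Klf2 and 74.0% for Klf4, 65.2% for Tfcp2l1 and 58.4% for Zfp42, against a median of 52.4%.

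Tbx3 and Tfcp2l1 had their lowest inputs in F266A, but neither passed the test of levels. For Tbx3 the input, IP 1 and IP 2 stood at 6.15, 6.93 and 7.5 RPKM in EV, at 6.77, 4.43 and 8.31 in WT and at 4.31, 2.23 and 5.32 in F266A. The F266A libraries were below all EV libraries, for which the share of all genes was not counted, and overlapped with WT. Tbx3 differed by -0.72 between F266A and EV (95% interval -1.27 to -0.17, limma adjusted p = 0.0731) and by 0.62 between WT and F266A (95% interval 0.07 to 1.17, limma adjusted p = 0.146). Without F266A IP 1 these values were -0.42 (limma adjusted p = 0.151) and 0.32 (limma adjusted p = 0.302). Without F266A IP 2, F266A minus EV passed at -0.95 (limma adjusted p = 0.0341). Tbx3 shares 115 exon bases with the antisense gene Gm2301, and the libraries do not mark the strand.

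Tfcp2l1, a transcription factor of the CP2 family, had 15.7 (input), 15.5 (IP 1) and 16.7 (IP 2) RPKM in EV, 18, 14.5 and 21.1 in WT, and 11.8, 12.5 and 15.1 in F266A. The F266A libraries were below all EV libraries, again without a share of all genes. They overlapped with WT only through F266A IP 2, which was above WT IP 1. The exons of Tfcp2l1 share 130 bases with a U1 snRNA on the same strand, whose reads could be counted with it. Tfcp2l1 differed by -0.27 between F266A and EV (95% interval -0.57 to 0.03, limma adjusted p = 0.195), or by -0.23 without F266A IP 1, and by 0.41 between WT and F266A (95% interval 0.11 to 0.71, limma adjusted p = 0.0825). The second of these passed when WT IP 1 was left out, at 0.57 (limma adjusted p = 0.0134), and was 0.37 without F266A IP 1 (limma adjusted p = 0.126).

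Zfp42, a widely used marker of the naive state, overlapped between the lines. EV had 11.8 RPKM in its input, 16.1 in IP 1 and 18.5 in IP 2, WT had 10.8, 14.9 and 16.2, and F266A had 10.7, 16.2 and 15.6. Between F266A and EV it differed by -0.12 (95% interval -0.31 to 0.07, limma adjusted p = 0.356), and between WT and F266A by -0.02 (95% interval -0.20 to 0.17, limma adjusted p = 0.932). Neither passed without F266A IP 1, where the difference from EV was -0.14. Since 78.4% of its transcript has a match elsewhere in mm9, the longest of 617 bases at 97.7% identity, this level may include reads of its copies.

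Dppa3 had the lowest values in the F266A input and IP 2. The input, IP 1 and IP 2 of EV held 6.78, 11.9 and 11.8 RPKM, those of WT 5.53, 12 and 6.95, and those of F266A 1.81, 9.41 and 3.04. The F266A input and IP 2 were below all EV and WT libraries, whereas F266A IP 1 lay within their range. IP 1 was also the F266A library with the lowest Y-linked and primitive endoderm sums, and the part of these in the value was not tested.

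Dppa3 was lower in F266A than in EV by 1.15 (SE 0.30, 2.21-fold, limma adjusted p = 0.0298). Without F266A IP 1 the difference was -1.58 (limma adjusted p = 0.000455), and that between WT and F266A, 0.84 with all libraries (95% interval 0.16 to 1.52, limma adjusted p = 0.110), passed at 1.28 (limma adjusted p = 0.00196). The difference from EV did not pass without EV IP 1 (-1.17), EV IP 2 (-1.17), F266A IP 2 (-0.84), the EV input (-1.08) or the F266A input (-0.97), with limma adjusted p of 0.0796 to 0.142, nor with the IPs alone (-0.98, limma adjusted p = 0.214). For WT minus F266A, values of Dppa3 ranged from 0.53 to 1.28 over single libraries left out. Nearly the whole transcript (98.1%) has a match elsewhere in mm9, of 820 bases at 97.7% identity, so that RNA of this copy could be counted with it.

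Prdm14 was low in every library. Values were 1.92 RPKM (input), 2.11 (IP 1) and 2.23 (IP 2) in EV, 1.78, 2.38 and 2.80 in WT, and 0.869, 1.84 and 1.47 in F266A. The F266A libraries were below all EV libraries, with no share of all genes counted, and F266A IP 1 was above the WT input. Prdm14 was lower in F266A than in EV by 0.39 (SE 0.10, 1.31-fold, limma adjusted p = 0.0311) and higher in WT than in F266A by 0.48 (SE 0.10, 1.40-fold, limma adjusted p = 0.0178).

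Without F266A IP 1 these were -0.48 for Prdm14 in F266A minus EV (limma adjusted p = 0.00901) and 0.57 in WT minus F266A (limma adjusted p = 0.00604). Leaving out single libraries ended both calls in several cases. F266A minus EV did not pass without EV IP 1 (-0.44), EV IP 2 (-0.41), F266A IP 2 (-0.37), the EV input (-0.28), the WT input (-0.39) or the F266A input (-0.30), with limma adjusted p of 0.0520 to 0.163. WT minus F266A did not pass without WT IP 2 (0.43), F266A IP 2 (0.46), the WT input (0.50) or the F266A input (0.40), with limma adjusted p of 0.0583 to 0.106. The lowest estimated number of reads on Prdm14 was 77, a counting error of 11.4%.

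**Figure D2:**
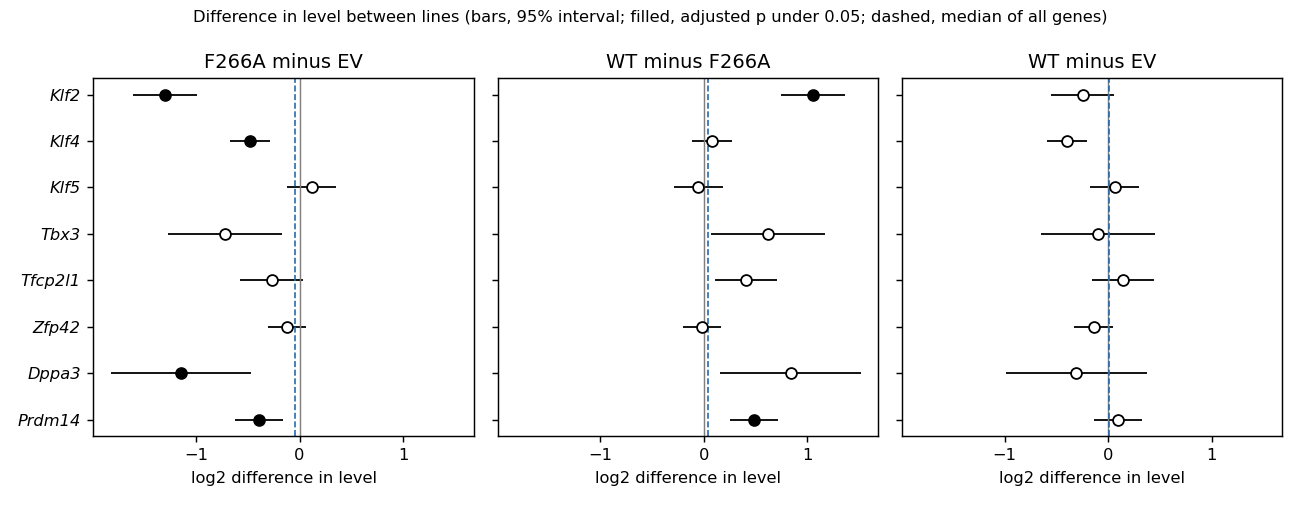
Log2 difference in level between lines for each naive gene, with its 95% interval (bars), limma adjusted p under 0.05 as filled points and the median of all genes tested as a dashed line. Klf2 lies farthest from 0 in F266A minus EV (-1.30) and in WT minus F266A (1.05), both with all libraries, and all 8 points are open in WT minus EV.

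The inputs hold RNA that was not purified and show the lines without the IP, at 1 library per line and so with no test. Of the 8 naive genes, 7 had their lowest input value in F266A, as did 58.9% of all genes tested, the exception being Klf5 with its lowest in EV. The EV input was 4.55-fold above the F266A input for Klf2, 3.75-fold for Dppa3, 2.21-fold for Prdm14, 1.51-fold for Klf4, 1.43-fold for Tbx3, 1.33-fold for Tfcp2l1 and 1.11-fold for Zfp42. The median gene was 1.12-fold higher in the EV input, so that Zfp42 was no farther than the typical gene. The EV and WT inputs differed by at most 1.38-fold, for Klf2.

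Other genes of the network were read from lists in the same fits, and the median difference of all 9787 genes between F266A and EV was -0.04. Their counts stand beside 11.3% of all genes lower in F266A and 5.45% higher with all libraries, and 17.1% lower and 8.76% higher without F266A IP 1. The naive genes had a median difference of -0.43. Of the 3 core factors, 2 were lower in F266A, namely Pou5f1, which encodes Oct4, at -0.71 (limma adjusted p = 0.00626) and Nanog at -0.53 (limma adjusted p = 0.00566), while Sox2 differed by -0.29 (limma adjusted p = 0.225). The median of the core factors was -0.53. Nanog was also higher in WT than in F266A, by 0.65 (limma adjusted p = 0.00364). After F266A IP 1 was left out, all 3 core factors were lower in F266A than in EV, Pou5f1 at -0.54, Nanog at -0.58 and Sox2 at -0.46 (limma adjusted p = 0.00325, 0.00396 and 0.0379).

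Of the 11 genes of LIF-STAT3 signalling, 9 were tested and 0 passed in F266A minus EV, with a median of 0.10 and values from -0.31 (Il6st, the receptor subunit gp130) to 0.23 (Socs3, a feedback inhibitor). The RPKM of Stat3 was 5.29 in the EV input, 4.81 in the WT input and 4.97 in the F266A input. In WT minus F266A 0 of the 9 passed as well, where 7.25% of all genes were higher and 2.72% lower. The largest difference was that of Pim1, a kinase gene, at 0.37 (limma adjusted p = 0.0682). When F266A IP 1 was left out, Pim1 passed in WT minus F266A at 0.50 (limma adjusted p = 0.00446), where 12.6% of all genes were higher. In F266A minus EV 2 of the 9 were then lower, Il6st at -0.42 and Pim1 at -0.43, a share near the 17.1% of all genes.

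Among 14 other ESC genes, all of which were tested, 4 were lower and 1 higher in F266A than in EV. Tcl1, an AKT coactivator, fell by 1.33 (limma adjusted p = 0.000200), and Nr0b1, which encodes the nuclear receptor Dax1, fell by 0.95 (limma adjusted p = 0.00581). Esrrb, an orphan nuclear receptor gene, fell by 0.44 (limma adjusted p = 0.0132). Gbx2, a homeobox gene, rose by 0.98 (limma adjusted p = 0.0144), so that this list held differences in both directions, with a median of -0.17. Leaving out F266A IP 1 gave 5 lower and 2 higher.

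With all libraries, genes that rise when ESCs leave the naive state did not pass in F266A minus EV. Of 8 formative and primed genes, 5 were tested, with a median of -0.28, and the largest difference was -0.67 for Otx2 (limma adjusted p = 0.117). In the fit without F266A IP 1, Lef1, a WNT effector, passed at -0.88 (limma adjusted p = 0.000416) and Dnmt3a, a DNA methyltransferase, at 0.25 (limma adjusted p = 0.0427). Of 14 other Klf genes, 10 were tested and 2 were lower in F266A, where 11.3% of all genes were, Klf8 by 0.44 (limma adjusted p = 0.0150) and Klf13 by 0.37 (limma adjusted p = 0.0106), with a list median of -0.11. The count of these Klf genes was again 2 without F266A IP 1, where 17.1% of all genes were lower.

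Of 8 germ cell genes, 5 were tested, and 3 were lower and 1 higher in F266A than in EV. Prdm1, which encodes Blimp1, fell by 0.90 (limma adjusted p = 0.00152), and Tfap2c, which encodes a transcription factor needed with Prdm1 and Prdm14 for germ cell fate, fell by 0.73 (limma adjusted p = 0.00114). Ddx4, a helicase gene of later germ cells, rose by 0.58 (limma adjusted p = 0.00588). Of 4 genes that act with or under Prdm14, 1 was lower, Dnmt3l, a cofactor of de novo DNA methylation, by 0.74 (limma adjusted p = 0.0172), and the receptor Fgfr1 differed by 0.40 (limma adjusted p = 0.171). Once F266A IP 1 was left out, 2 germ cell genes were lower and 1 higher, and Fgfr1 passed at 0.69 (limma adjusted p = 0.000585) beside Dnmt3l at -0.49 (limma adjusted p = 0.00465).

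Of the 16 primitive endoderm markers, 9 reached the RPKM needed for the test. Of these 9, 5 (Gata4, Dab2, Col4a1, Col4a2 and Cubn) did so only through the F266A libraries. For this list, no test and no count of genes called is therefore given. The RPKM of Col4a2, a basement membrane collagen, was 6.82 in the F266A input, 1.51 in its IP 1 and 9.14 in its IP 2, and 0.284 to 1.06 in the EV and WT libraries. That of Dab2, an endocytic adaptor, was 3.02, 0.916 and 5.43 in F266A, and 0.0728 to 0.261 in the other lines. For Col4a2 and Dab2 the F266A input and IP 2 were the highest libraries. Of the markers that passed the filter otherwise, Lamb1 read 4.06, 4.73 and 4.11 in the inputs of EV, WT and F266A. In the same order Lamc1 read 13.0, 11.9 and 16.0, Lama1 3.07, 2.57 and 5.54, and Sparc 16.0, 14.9 and 28.5. Whether primitive endoderm cells were present, and their part in the lower level of the naive genes, was not tested.

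**Figure D3:**
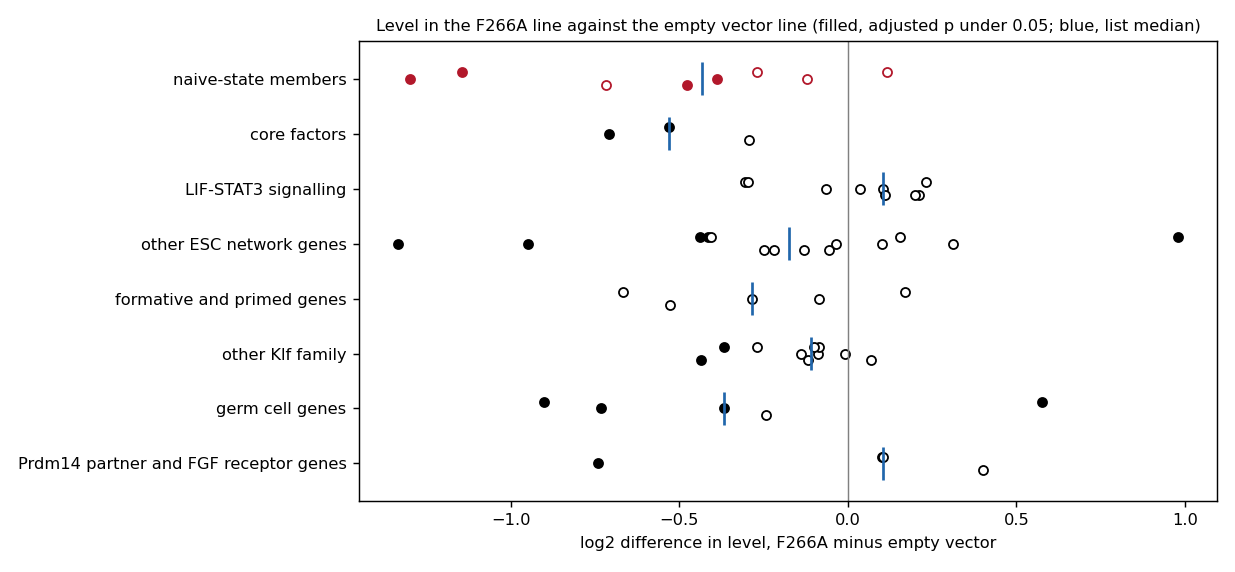
Log2 difference in level, F266A minus EV, for the tested genes of each list, with limma adjusted p under 0.05 as filled points and the list median as a blue line. The medians of the naive genes (-0.43) and the core factors (-0.53) lie below 0, and that of LIF-STAT3 signalling at 0.10.

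The next question was whether RNA of the naive genes was recovered in the IPs beyond its input level. The enrichment score is log2(RPKM + 1) of an IP minus that of its line's input, and both scores of a line share 1 input. Variation between inputs of a line is thus not measured by the tests of IP against input or of scores. Over the 3 lines, 5 of the 8 naive genes were higher in the IPs than in the inputs and 0 lower. However, 56.4% of all genes tested were higher, the median score being 0.30, and the EV line, which has no tagged protein, was included. Relative to the median gene, with libraries scaled to it, 0 of the 8 passed, where 0.95% of all genes were higher and 0.542% lower.

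Dppa3 had the largest difference between IPs and inputs, at 0.86 (SE 0.28, limma adjusted p = 0.0319). Klf2 followed at 0.52 (SE 0.13, limma adjusted p = 0.0114), Zfp42 at 0.51 (SE 0.09, limma adjusted p = 0.00416), Klf5 at 0.41 (SE 0.11, limma adjusted p = 0.0130) and Prdm14 at 0.33 (SE 0.09, limma adjusted p = 0.0159). For Klf5 and Zfp42 all 6 IPs were above all 3 inputs, as for 42.2% of the genes tested. Klf4 (0.05, limma adjusted p = 0.623), Tfcp2l1 (0.07, limma adjusted p = 0.656) and Tbx3 (-0.05, limma adjusted p = 0.842) did not pass.

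The median over the 8 genes was 0.37, against 0.30 over all genes. The count was again 5 without F266A IP 1, where 58.4% of all genes were higher and Dppa3 was at 0.63. It was 2 without the F266A input, where 30.3% of all genes were higher, since Klf2 (0.45), Dppa3 (0.68) and Prdm14 (0.24) no longer did, with limma adjusted p of 0.0604 to 0.148. The call of Dppa3 was also lost without EV IP 1 (0.85), EV IP 2 (0.86), WT IP 1 (0.74), the EV input (0.92) or the WT input (0.96), with limma adjusted p of 0.0507 to 0.0756.

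Scores of the naive genes were compared between the lines to ask whether the WT protein retrieved them more than the F266A protein or the empty vector. None of the 8 genes passed in WT minus F266A, WT minus EV or F266A minus EV. Among all 9787 genes 0 passed in limma as well (0% in each comparison), with 259, 173 and 243 genes at an unadjusted p under 0.05.

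Klf2 scored 0.47 and 0.24 in EV, 0.63 and 0.45 in WT and 0.93 and 0.40 in F266A. The difference between WT and F266A was -0.12 (95% interval -0.84 to 0.60) and turned to 0.14 without F266A IP 1, and that between WT and EV was 0.19 (95% interval -0.53 to 0.91). With the mean of the 3 inputs in the place of each line's own, so that the comparison is that of the IP levels, Klf2 differed by 1.01 for WT minus F266A (limma adjusted p = 0.0451) and by -1.20 for F266A minus EV (limma adjusted p = 0.0187). Dppa3 scored 0.72 and 0.71 in EV, 0.99 and 0.28 in WT and 1.89 and 0.52 in F266A, where the score of IP 1 stood far above the other 5. Its difference between WT and F266A was -0.57 (95% interval -2.15 to 1.01) and turned to 0.11 without F266A IP 1. The interval of Dppa3 thus held differences in both directions. Its ends were larger than any difference in score between lines fitted for the 8 genes with all libraries and each line's own input.

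Prdm14 scored 0.09 and 0.15 in EV, 0.28 and 0.45 in WT and 0.60 and 0.40 in F266A. Both WT scores were thus above both EV scores, but the difference of 0.25 (95% interval -0.25 to 0.75) did not pass, and the F266A scores reached higher than the WT scores. Zfp42 had the most even scores, from 0.42 to 0.60 in all 6 IPs, and its lines differed by at most 0.05. Klf5 scored 0.48 and 0.51 in EV, 0.13 and 0.48 in WT and 0.38 and 0.49 in F266A, so that the lowest score was that of WT IP 1.

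Klf4 scored 0.05 and 0.03 in EV, -0.09 and -0.02 in WT and 0.07 and 0.24 in F266A. The WT scores were the only ones below 0, and all 6 were below the medians of 0.26 to 0.39 that the genes tested had in these IPs. Tbx3 scored 0.15 and 0.25 in EV, -0.52 and 0.26 in WT and -0.72 and 0.25 in F266A. Tfcp2l1 scored -0.01 and 0.09 in EV, -0.30 and 0.22 in WT and 0.08 and 0.33 in F266A. For Tbx3 the IP 2 scores of all lines lay between 0.25 and 0.26, and the low scores were those of IP 1.

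**Figure D4:**
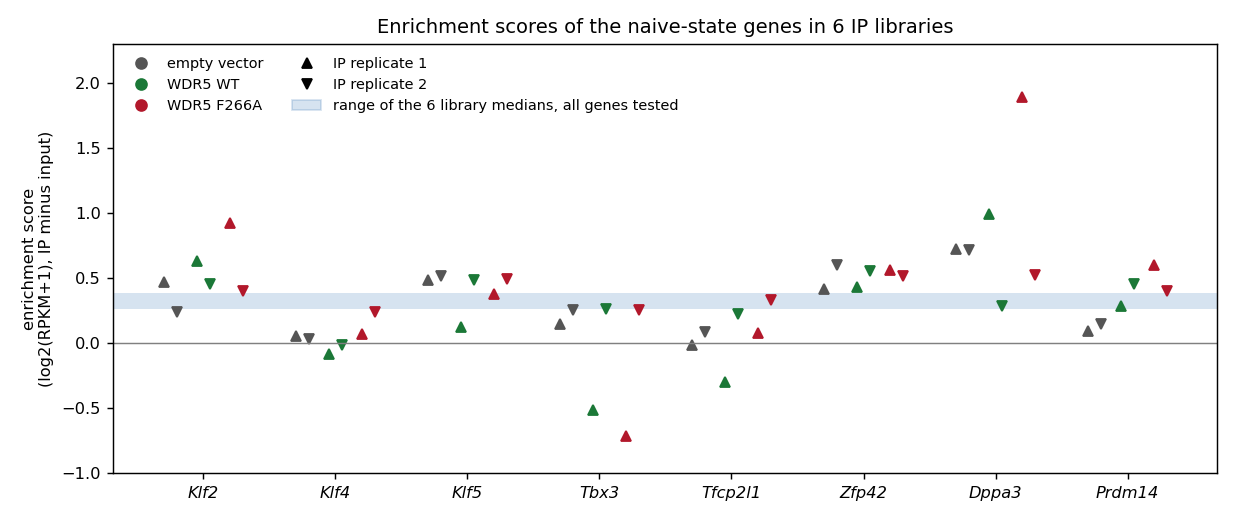
Enrichment scores of the naive genes in both IPs of each line, with the range of the 6 library medians over all genes tested as a blue band. Zfp42 lies between 0.42 and 0.60 in all 6 IPs, the lowest score of Klf5 is that of WT IP 1, Klf4 lies below the band in all 6 IPs, and the IP 1 scores of Tbx3 and Dppa3 lie far from those of IP 2 in WT and F266A.

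The methods of the study called a gene enriched when both scores of WT were above 0 and above all 4 scores of the other lines. They name log2 RPKM without a pseudocount and a wider transcript set, whereas the rule was applied here to log2(RPKM + 1) of the deposited symbols. By this rule 0 of the 8 naive genes were called for WT, where 4.79% of all 24132 symbols were. With F266A in the place of WT 1 was called, Klf4, by a margin of 0.02, where 13.6% of symbols were. With EV in this place 0 were called, where 3.96% of symbols were. The margin to the rule for WT was smallest for Zfp42, whose lower score of 0.43 missed the highest score of EV and F266A by 0.17, a margin of -0.17, and largest for Dppa3 at -1.61.

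In WT and F266A the IPs of a line differed most for Dppa3 and Tbx3 among the naive genes, and in opposite directions. In WT, IP 1 minus IP 2 was 0.71 for Dppa3 and -0.78 for Tbx3, and in F266A it was 1.37 and -0.97. The IP 1 libraries of WT and F266A were also those with the highest sums of the trophectoderm markers, 5.999 and 4.69. Most of these sums was Krt8 (1.79 and 1.78) and Krt18 (3.61 and 2.12), and the other 5 markers stayed below an RPKM of 1 in every library. Whether trophectoderm cells were present, and their part in these gaps, was not tested. In EV both IPs were alike, with 0.01 for Dppa3 and -0.10 for Tbx3. The distances from the median gap in WT and F266A lay at percentiles 98.1 to 99.6 of all genes tested in the line, where the 95th percentile was 0.51 in WT and 0.61 in F266A. For Zfp42 and Klf4 the gaps were at most 0.19 in any line.

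**Figure D5:**
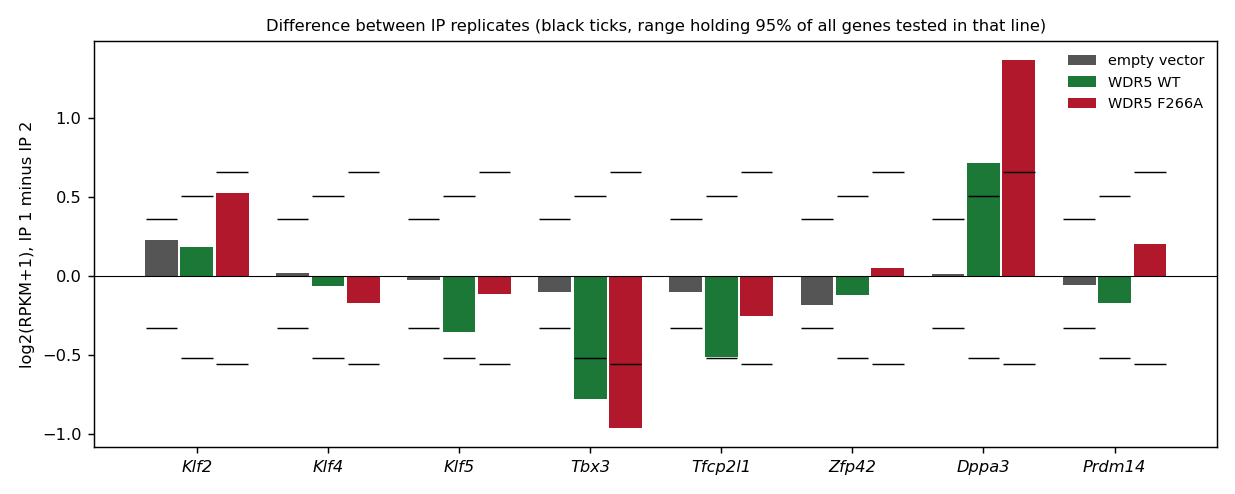
Difference in log2(RPKM + 1) between the IPs of a line (IP 1 minus IP 2) for each naive gene, with black ticks at the range that holds 95% of all genes tested in that line. Dppa3 and Tbx3 pass this range in WT and F266A, in opposite directions, and in EV no naive gene does.

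With WT IP 1 and F266A IP 1 both left out, which was chosen after the data were seen, 5 of the 8 naive genes were higher in WT than in F266A: Klf2, Tbx3, Tfcp2l1, Dppa3 and Prdm14. Tbx3 then differed by 0.55 (limma adjusted p = 0.00235), Tfcp2l1 by 0.52 (limma adjusted p = 0.00740) and Dppa3 by 1.097 (limma adjusted p = 0.000667). In the same fit 1466 of all genes (15%) were higher in WT, against 7.25% with all libraries.

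The genes whose pattern over the 9 libraries was closest to each naive gene were found by the root mean square difference of their deviations from the mean log2(RPKM + 1), among 9023 genes. They were Gm19705 for Klf2 (0.13), Aldoart2 for Klf4 (0.09), Atp1b1 for Klf5 (0.06), C330008G21Rik for Tbx3 (0.12), Blm for Tfcp2l1 (0.06), Hyls1 for Zfp42 (0.04), Stk30 for Dppa3 (0.23) and Spire1 for Prdm14 (0.08). None of the 8 genes was the nearest of another. The 9 libraries share their lines, inputs and depth, so closeness is a description only.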

How the data were processed

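RPKM per RefSeq gene symbol were deposited by the authors, who aligned the reads with TopHat 1.1.3 (mm9) and used a script of their own. The NuGEN kit used does not mark strand. Members and gene lists were chosen with earlier results of these data known. They were all named, with the closest gene of each member and, for most lists, up to 4 genes with the largest difference. Lef1, Dnmt3a and Stat3 were added after their values were seen. Of the primitive endoderm markers, the 9 that passed the filter were named. Of the trophectoderm markers Cdx2 was named, and Krt8 and Krt18 after their values were seen. RPKM are not counts, so log2(RPKM + 1) was tested, for 9787 genes at an RPKM of 1 or more in 2 or more libraries, with limma 3.58.1 in R 4.3.3 (eBayes with trend), with Benjamini-Hochberg adjustment over all of them and a threshold of 0.05. Levels were fitted with line and fraction as terms, and scores with 1 coefficient per line and fraction. The code was tested on simulated data.

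Depth, estimated from the value of 1 read, ranged from 13400000 to 50200000 mapped reads, and reads per gene were estimated with GENCODE M1 exon lengths and cover counting error only. Copies were searched in mm9 with megablast. Motif matches and figures used Python 3.11.15. The lines share IP numbers 1 and 2, but deviations of same-numbered IPs correlated at 0.11 (EV and WT), 0.01 (EV and F266A) and 0.26 (WT and F266A) over genes, so the numbers were not taken as pairs. The alternatives covered the pseudocount (0.1), filters, normalization, eBayes without trend, a replicate block, a common input, the IPs alone, centred scores and each library left out.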

Additional observations from a re-analysis of the deposited data

Results flagged for a closer look

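Klf4 was singled out because both of its WT scores lay below 0 while the 4 scores of EV and F266A lay above 0. This pattern of Klf4 was not counted over all genes. The difference in IP minus input was -0.21 for WT against F266A and -0.093 for WT against EV. Neither passed in limma (both adjusted p above 0.99), and the difference from F266A turned to 0.0083 with the mean of the 3 inputs in the place of the input of each line.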

How the results depend on the processing

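Over 56 results with a test, 787 of 898 alternatives kept direction and side of the threshold, 43 lost a call, 12 gained one and 56 changed sign, of which 1 concerned a called value. The lower level of Klf2 in F266A passed in every fit that tested it, at -1.69 to -1.18 against EV, and at 0.94 to 1.40 for WT minus F266A, but a mean RPKM of at least 5 leaves Klf2 and Prdm14 untested. The cause of the changes below was not tested unless the setting itself gives it.

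Counts of naive genes called in WT minus F266A (2) were 1 without a filter, 0 with a mean RPKM of at least 5, 1 with the IPs alone, 5 with the replicate block, 5 without WT IP 1 and F266A IP 1, and 1 to 3 with single libraries left out. In F266A minus EV (4) they were 2 without a filter, 2 with a mean of at least 5, 1 with the IPs alone, 5 with the replicate block, 5 without WT IP 1 and F266A IP 1, where Tbx3 passed at -0.40 (limma adjusted p = 0.00415), and 2 to 4 with single libraries left out. For IP minus input over the lines (5) they were 1 without a filter, 3 with a mean of at least 5, 0 with quantile normalization, 0 with median scaling, 7 without WT IP 1 and F266A IP 1, where 67.3% of all genes were higher and Tbx3 and Tfcp2l1 passed too, and 2 to 5 with single libraries left out.

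For the levels, calls of all genes without a filter and with the replicate block are not given singly. They lay within 114 to 2128 in WT minus F266A and 447 to 3157 in F266A minus EV. The naive counts of both settings therefore stand without a share of all genes. Over all genes, calls in WT minus F266A (976) were 505 with a mean of at least 5, 2128 without both IP 1, 114 with the IPs alone and 293 to 1800 with single libraries left out. In WT minus EV (17) they were 10, 93, 0 and 0 to 61, and in F266A minus EV (1635) 800, 3157, 447 and 804 to 2531. For IP minus input (5567) they were 3258 without a filter, 2594 with a mean of at least 5, 236 with quantile normalization, 146 with median scaling and 3002 to 5875 with single libraries left out. For differences in score (0) they were 33 (WT minus F266A), 45 (WT minus EV) and 22 (F266A minus EV) without a filter, 88 with a pseudocount of 0.1 in F266A minus EV, 114 (WT minus F266A) and 445 (F266A minus EV) with a common input, where 1 naive gene, Klf2, was called in each, and 0 to 2 in WT minus F266A with single IPs left out.

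The rule of the methods for WT gave 1 naive gene with a common input, 723 of all symbols with centred scores, and with a single IP of WT 0 to 1 naive genes and 3238 to 3354 symbols. With F266A in that place it gave 2 naive genes with a pseudocount of 0.1, 0 with a common input, 0 and 690 symbols with centred scores, and with a single IP 2 to 4 and 6048 to 6960. With EV it gave 1 and 1494 with a common input, 1 with centred scores, and with a single IP 0 to 2 and 2606 to 2609. Over the pseudocount of 0.1, a common input and centred scores, 723 to 1270 of all symbols met the rule for WT. With F266A in that place 690 to 3669 did, and with EV 733 to 1494.

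Signs of levels that did not pass turned in WT minus F266A for Klf5 (0.030) and Zfp42 (0.033) and in WT minus EV for Tbx3 (0.16) without both IP 1, and in WT minus EV for Klf5 with the IPs alone (-0.0010). With single libraries left out they ranged from -0.13 to 0.065 (Klf5) and -0.046 to 0.020 (Zfp42) in WT minus F266A, and from -0.013 to 0.18 (Klf5) and -0.30 to 0.13 (Tbx3) in WT minus EV. IP minus input became -0.39 (Klf4), -0.061 (Klf5, called in the main fit) and -0.38 (Tfcp2l1) with quantile normalization, -0.26 (Klf4) and -0.24 (Tfcp2l1) with median scaling, -0.079 (Tfcp2l1) with the replicate block and 0.24 (Tbx3) without both IP 1, and ranged from -0.0054 to 0.098 (Klf4), -0.21 to 0.11 (Tbx3) and -0.020 to 0.15 (Tfcp2l1) with single libraries left out.

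Differences in score turned with a common input in WT minus F266A to 1.01 (Klf2), 0.0083 (Klf4), 0.33 (Tfcp2l1), 0.65 (Dppa3) and 0.44 (Prdm14), in WT minus EV to -0.18 (Klf2) and 0.12 (Tfcp2l1), and in F266A minus EV to -1.20 (Klf2), -0.44 (Klf4), 0.10 (Klf5), -0.21 (Tfcp2l1), -0.11 (Zfp42), -0.98 (Dppa3) and -0.26 (Prdm14). With quantile normalization they turned to 0.011 (Klf5) and 0.048 (Zfp42) in WT minus F266A, 0.016 (Zfp42) in WT minus EV and -0.032 (Zfp42) in F266A minus EV, and with median scaling to 0.051 (Zfp42, WT minus F266A) and -0.081 (Zfp42, F266A minus EV). With single IPs left out WT minus F266A ranged from -0.38 to 0.14 (Klf2), -0.31 to 0.046 (Klf5), -0.38 to 0.59 (Tbx3), -0.50 to 0.016 (Tfcp2l1), -0.11 to 0.015 (Zfp42) and -1.25 to 0.11 (Dppa3), WT minus EV from -0.72 to 0.062 (Tbx3), -0.33 to 0.18 (Tfcp2l1), -0.11 to 0.073 (Zfp42) and -0.44 to 0.27 (Dppa3), and F266A minus EV from -0.92 to 0.052 (Tbx3), -0.066 to 0.12 (Zfp42) and -0.19 to 1.17 (Dppa3).

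With the replicate number as a block, Tbx3 (0.62, limma adjusted p = 0.0353), Tfcp2l1 (0.41, limma adjusted p = 0.0292) and Dppa3 (0.84, limma adjusted p = 0.0376) passed in WT minus F266A and Tbx3 (-0.72, limma adjusted p = 0.0129) in F266A minus EV. Counting errors were largest for Klf2, Dppa3 and Prdm14, at up to 12.9% in 1 library.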
